A study of Mus musculus with 8 samples.

Results

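The comparison described here is that of 4 of the 8 arrays of a study of 3134 cells, a mouse mammary line, none of which had been given hormone. The 2 arrays whose titles read control, 0 hour and plus tetracycline were set against the 2 arrays whose titles read control, 0 hour and no tetracycline. The other 4 arrays are of the same arms after 4 h of dexamethasone at 100 nM, which add to the estimate of spread behind the 0 h tests and give each arm's values under hormone. Per the labels, the line was made by transformation of C127 cells, which came from a mammary adenocarcinoma of an RIII mouse. The transgenes for A-fos and for tTA, the regulator that tetracycline blocks, were stably carried by the cells of every group, controls included, and cells of every group spent 48 h in charcoal-stripped serum before hormone would have been added. Tetracycline, where used, was at 1 ug per ml. The labels do not say whether the cells were 1 clone, one label gives the cells as male and another as female, and both arms were of the same transgenic line, so no group lacked the transgene.

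A-fos is a dominant negative partner of the Jun proteins, which keeps the AP-1 dimer of Fos and Jun family members off DNA, and under a Tet-Off switch tetracycline turns its expression off. For each of the 8 samples, however, the treatment protocol states the opposite of the tetracycline state given in the title and in the matching sample characteristic. The arms go here by their titles, as no-titled and plus-titled, because the labels leave unsettled in which of them A-fos was made. All differences below are plus-titled minus no-titled on the log2 scale of the deposited values, so that a difference of 1 is a doubling. The question is which basal programs differed between these arms before any hormone was given.

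AP-1 is known to drive genes of the early growth response, of matrix remodelling and of the cell cycle, and mammary cells in culture express several of its subunits. Other regulators named below work through short motifs next to the genes they control. ATF4 is made when amino acids are short or proteins misfold and switches on amino acid uptake, amino acid synthesis and tRNA charging. SREBP2, helped by NF-Y, switches on the sterol pathway when membrane cholesterol is low, TFEB and its relatives switch on lysosomal genes, Myc drives ribosome production, and E2F factors and the DREAM complex time the genes of DNA replication and mitosis.

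The 2 arrays of a group correlated at r = 0.9932 to 0.9956 across genes, and array medians lay between 5.59 and 5.69. The plus-titled arrays at 0 h were the least alike pair, with 24 genes over 2-fold apart against 4 to 11 in the other pairs, and a component holding 9.73% of the variance set them at 17.63 and -15.29 on its scale. The labels do not say whether the arrays of a group are of separate cultures; the p-values then take in no more than the spread between these samples, possibly a technical one, and the number of arrays limits the precision. A gene was called when its adjusted p in the fit over all genes with limma was under 0.05. Of 19938 genes, 1236 (6.2%) were higher and 634 (3.18%) were lower in the plus-titled arm, together 9.38%, and 107 and 40 of them differed by at least 2-fold. The median difference over all genes was -0.019. In each of the 1870 called genes both arrays of one arm lay above both arrays of the other, as they did in 49.8% of all genes. Fits that leave out 1 of the 0 h arrays rest on a lone array in 1 arm, assumed to vary like the other groups, and called 589 genes without no-titled array 1, 677 without no-titled array 2, 1311 without plus-titled array 1 and 1172 without plus-titled array 2. In the lists below, counts without an array are given in that order. A count of calls in a list is to be read against the shares of all genes, 6.2% higher and 3.18% lower. Those shares depended on signal. With genes in 5 equal bins of mean signal, 0.326% were higher and 0.752% lower in the dimmest bin, against 11.9% and 7.75% in the brightest. The shares of all genes are therefore a rough yardstick, too low for bright lists and too high for dim ones.

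Markers of mammary and other cell types were checked first. Of 17 luminal mammary epithelial genes, 1 passed the test, the keratin gene Krt7, and it was higher (0.65 ± 0.12, limma adjusted p = 0.00776; call lost without no-titled 0 h array 2). The list's mean signal was 5.20 and 5.24 in the no-titled arrays and 5.17 and 5.27 in the plus-titled arrays. Epcam, an epithelial adhesion gene, lay at 4.39 and 4.56 in the no-titled arrays and 4.45 and 4.41 in the plus-titled arrays, and Cdh1, which encodes E-cadherin, at 5.01 and 4.90 against 4.83 and 4.92. The array files give no detection calls, so absence cannot be stated, and the lower quartile of all gene signals in an array, for orientation, was 4.222 to 4.368. Vim, the mesenchymal filament gene vimentin, lay at 12.99 and 12.99 against 12.64 and 12.69 and did not pass (limma adjusted p = 0.0840), but of 20 fibroblast and mesenchymal markers 2 were higher and 4 lower (10% and 20%, against 6.2% and 3.18% of all genes). Of 14 basal genes, Krt14 was lower (-1.39 ± 0.17, limma adjusted p = 9.30e-04) and Acta2 was higher. Of 10 milk protein genes limma called 0, with 1 at an unadjusted p under 0.05, and likewise 0 and 1 of 11 adipocyte genes, 0 and 1 of 10 endothelial genes and 0 and 0 of 8 pituitary corticotroph genes. In that order, the mean signals were 4.83 and 4.90, 4.57 and 4.64, 5.07 and 5.08, and 4.67 and 4.70 in the no-titled arrays. The plus-titled arrays had 4.78 and 4.89, 4.36 and 4.49, 4.96 and 5.00, and 4.51 and 4.71. Dim genes were seldom called, so 0 calls in such lists do not show the arms to be alike. Of 13 leukocyte genes only Lyz2 was called, while Ptprc, the pan-leukocyte antigen CD45, lay at 4.02 and 3.99 against 3.68 and 4.08, and the list's mean signal was 4.58 and 4.48 in the no-titled arrays and 4.62 and 4.67 in the plus-titled arrays. In bulk RNA, fewer cells of a type and less RNA per cell cannot be told apart, which holds for every list below.

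The largest difference upward was in Lyz2, a lysozyme that cleaves bacterial cell walls, at 5.84 and 5.51 in the no-titled arrays and 8.08 and 8.16 in the plus-titled arrays (probe set 10372648). It was 5.43-fold higher (2.44 ± 0.13, SE; limma adjusted p = 1.72e-05). Its neighbour in sequence Lyz1 lay at 4.45 and 4.61 against 4.77 and 5.74 and did not pass (limma adjusted p = 0.120), and probes for near-identical genes can read each other. Aldh1a1, an enzyme that makes retinoic acid from retinal, was 5.13-fold higher, at 7.38 and 7.49 against 9.93 and 9.67, and its close paralog Aldh1a7 at 4.97 and 5.13 against 7.2 and 7.25 was 4.52-fold higher, with the same reservation. Ogn, a small leucine-rich proteoglycan of the matrix, lay at 5.41 and 5.44 against 7.69 and 7.48 (2.16 ± 0.20). In Lyz2, Aldh1a1, Aldh1a7 and Ogn the arms stood well apart, by several times the gap between replicate arrays. Txnip, an inhibitor of thioredoxin and of glucose uptake, was 4.00-fold higher, at 6.6 and 6.96 against 8.80 and 8.75. Itga1, a collagen-binding integrin, differed by 2.13 ± 0.20, Adgrg1, an adhesion G protein-coupled receptor, by 1.98 ± 0.15, and Slco1a5, an organic anion transporter, by 2.24 ± 0.33, the last from no-titled values of 3.85 and 2.75 that were themselves far apart. Tcp11l2 (2.02), Ly6f (1.89), Plscr2 (1.78) and Klhl24 (1.77) complete the group of the largest upward differences outside the lists below.

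The largest difference downward was in Slc7a11, the cystine importer that feeds glutathione synthesis, at 7.46 and 7.71 in the no-titled arrays and 5.25 and 5.40 in the plus-titled arrays (probe set 10498024). It was 4.81-fold lower (-2.27 ± 0.15, limma adjusted p = 2.92e-05). Next came Aldh1l2, a mitochondrial folate enzyme, at 9.56 and 9.69 against 7.70 and 7.66 and 3.84-fold lower. Plk2, a serum-induced kinase that is also a p53 target, lay at 9.81 and 9.86 against 8.2 and 7.80 (-1.84 ± 0.13). Lox, which crosslinks collagen and elastin, lay at 9.28 and 9.27 against 7.67 and 7.61 (-1.64 ± 0.10) with next to no gap between the arrays of an arm. Below these, Il18rap, a subunit of the interleukin-18 receptor, differed by -1.42 ± 0.12, Ltbp1, which tethers latent TGF-beta to the matrix, by -1.34 ± 0.11, and Bcat1, the cytosolic branched-chain aminotransferase, by -1.32 ± 0.12. Snhg5, a host transcript of small nucleolar RNAs, differed by -1.26 ± 0.15. Taf1d, a subunit of the RNA polymerase I factor SL1 and itself a snoRNA host, lay at 9.76 and 9.55 against 8.81 and 7.84 and was read by 9 probe sets; its call was lost without no-titled 0 h array 1 (adjusted p 0.0576). The plot of single-array signals shows 16 of the genes described here and below.

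**Figure D1:**
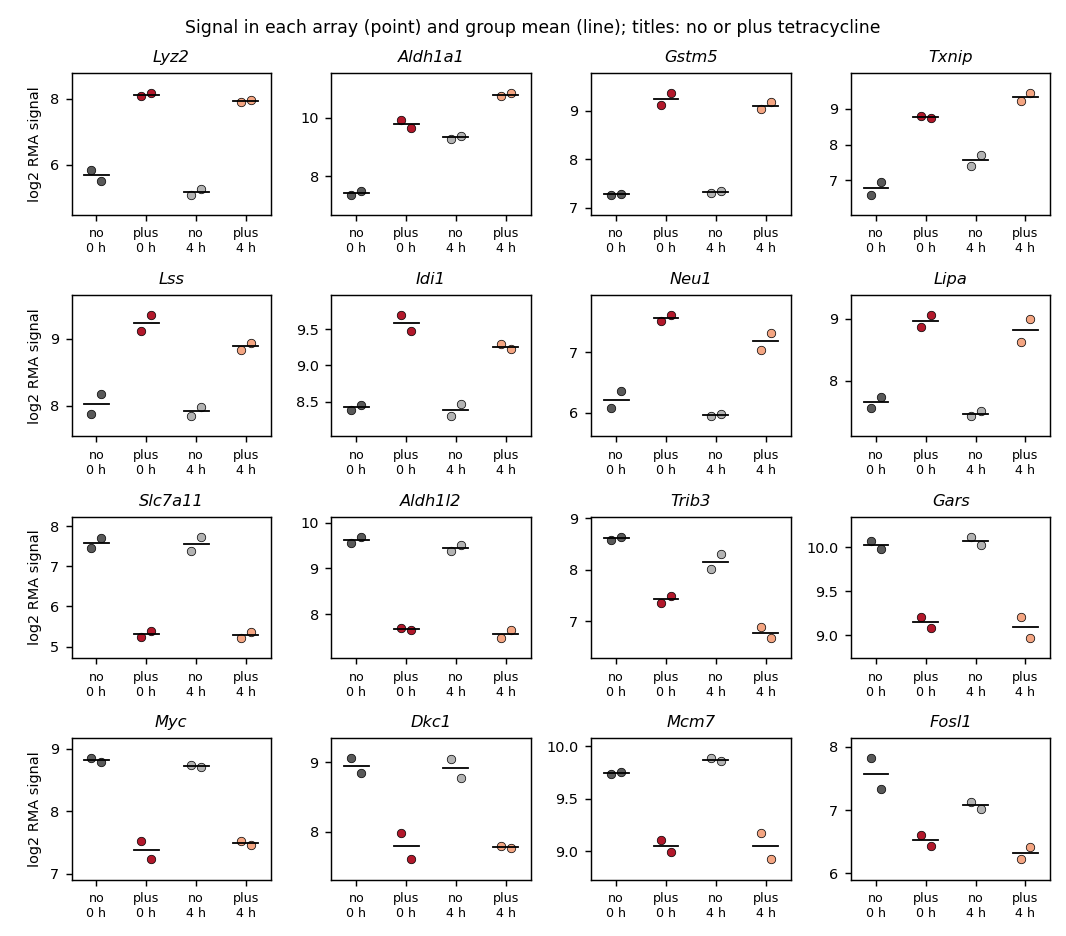
Log2 RMA signal of 16 genes in each of the 8 arrays (points, vertical axis) by group (horizontal axis: no or plus tetracycline by title, at 0 h or at 4 h of dexamethasone), with the mean of each pair as a line. All 16 were called at 0 h, where no called gene has overlapping arms, so that their arms do not overlap follows from the choice of genes. Lyz2 lies at 5.84 and 5.51 against 8.08 and 8.16, and Slc7a11 at 7.46 and 7.71 against 5.25 and 5.40.

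Of the genes for AP-1 subunits and their relatives, those for both Fra proteins were lower. Fosl1, which encodes the Fos-family subunit Fra-1, lay at 7.82 and 7.34 in the no-titled arrays and 6.61 and 6.43 in the plus-titled arrays and was 2.09-fold lower (-1.06 ± 0.16, limma adjusted p = 0.00274). Fosl2, which encodes Fra-2, lay at 8.41 and 8.21 against 7.48 and 7.62 (-0.76 ± 0.12, limma adjusted p = 0.00295). In both the arms were separate, as in every called gene, and the no-titled values were the higher ones. The small Maf protein gene Mafk was higher at 0.46, a call lost without each of no-titled 0 h arrays 1 and 2, plus-titled 0 h arrays 1 and 2 and plus-titled 4 h arrays 1 and 2. Fos did not pass, at 4.96 and 5.10 against 5.19 and 5.5 (0.31, limma adjusted p = 0.180), and neither did Jun, at 8.66 and 8.71 against 8.77 and 8.58 (-0.01, limma adjusted p = 0.973), whose arms overlapped. Junb (0.04), Jund (-0.28), Fosb (0.0069) and Atf3 (-0.17) also did not pass. Over the 18 subunit genes measured, 1 was higher and 2 were lower (5.56% and 11.1%, against 6.2% and 3.18% of all genes), with a median of -0.0017, and the higher one was not called without any single 0 h array.

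Genes that textbooks give as AP-1 targets went both ways. Of 20 measured, 3 were higher and 2 were lower (15% and 10%, against 6.2% and 3.18% of all genes). The median was -0.04 against -0.019 over all genes. Timp1, an inhibitor of matrix metalloproteinases, was 2.31-fold lower, at 9.36 and 9.61 against 8.44 and 8.11. Plaur, the urokinase receptor, lay at 7.88 and 7.60 against 7.14 and 6.91 (-0.71; call lost without each of no-titled 0 h array 1 and plus-titled 0 h array 2). Ezr, which links membrane to actin, was 2.33-fold higher, at 8.40 and 8.32 against 9.64 and 9.50. Dusp1, a MAP kinase phosphatase, differed by 0.70 and Ccl2, a monocyte chemokine, by 0.60. The Dusp1 call was lost without each of no-titled 0 h array 2 and plus-titled 0 h arrays 1 and 2. That of Ccl2 was lost without each of no-titled 0 h arrays 1 and 2 and plus-titled 0 h array 1. The collagenase and stromelysin genes Mmp13 (0.05) and Mmp3 (-0.01), and Ccnd1, cyclin D1 (-0.07), did not pass. The higher counts without each 0 h array were 2, 1, 1 and 2, and the lower counts 1, 2, 2 and 1. Of the 5 members that passed, Plaur and Ezr had a promoter window with a match to the AP-1 motif. Both are shown because 1 was lower and 1 higher, with the match in capitals.
Plaur: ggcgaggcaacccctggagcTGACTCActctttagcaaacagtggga
Ezr: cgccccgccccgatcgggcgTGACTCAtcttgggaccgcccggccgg
The Plaur bases are chr7:24462394-24462440 on the plus strand in GRCm38.p6, from RefSeq, and those of Ezr are chr17:6782786-6782832 on the minus strand. The motif searched was TGANTCA, on both strands, in the 250 bases before each RefSeq start. It was found in 8 of the 16 windows of these target genes and in 6.04% of the windows of all genes tested. Among genes higher in the plus-titled arm it was in 4.9% of windows and among genes lower in 6.24%. A match is a description of the letters and shows no binding.

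Many genes of amino acid metabolism and of the ATF4 response were lower in the plus-titled arm. Of 19 stress response genes measured, 10 were lower and 0 were higher, with a median of -0.67. Of 18 enzymes of serine, proline and one-carbon metabolism 10 were lower and 0 higher (median -0.65), and of 17 cytosolic aminoacyl-tRNA synthetases 10 were lower and 0 higher (median -0.53). Over all genes 3.18% were lower and the median was -0.019. The amino acid transporters were mixed, with 6 lower and 2 higher of 18 (median -0.23). The mean signal of the stress response list was 7.47 and 7.52 in the no-titled arrays and 6.94 and 7.03 in the plus-titled arrays, and the arms did not overlap.

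The motif of ATF4 with its C/EBP partners, called CARE, was searched as TGATGNAA on both strands. It was in 7 of the 22 promoter windows of the stress response list and in 2 of the 11 of the synthetases, against 2.68% of the windows of all genes tested and 2.72% of those of all genes lower. The stretches below are shown because each holds a match next to a gene that was lower; the match is in capitals.
Slc7a11: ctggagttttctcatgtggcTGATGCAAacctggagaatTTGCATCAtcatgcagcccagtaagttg
Chac1: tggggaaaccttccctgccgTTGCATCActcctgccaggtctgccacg
Asns: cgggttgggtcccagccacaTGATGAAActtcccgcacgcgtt
Gars: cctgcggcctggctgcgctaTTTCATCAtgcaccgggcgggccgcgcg
Tars: ggccaggagtcccgTTGCATCAgctggtt
From RefSeq in GRCm38.p6, the Slc7a11 stretch is chr3:50443633-50443699 on the minus strand and holds 2 matches, 1 on each strand. That of Chac1 is chr2:119351029-119351076 on the plus strand, that of Asns chr6:7693210-7693252 on the minus strand, that of Gars chr6:55037951-55037998 on the plus strand and that of Tars chr15:11399659-11399687 on the minus strand. Across the 4 amino acid lists, 12 of the 57 genes with a window held the motif; 6 of these were lower, with a median difference of -0.53, and of the 45 without it 23 were lower and 2 higher, with a median of -0.49.

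Within the stress response list, Atf4 itself was lower. It lay at 9.52 and 9.57 in the no-titled arrays and 8.86 and 8.88 in the plus-titled arrays (-0.67 ± 0.10, limma adjusted p = 0.00324). Trib3, a pseudokinase that feeds back on ATF4, was 2.27-fold lower, at 8.58 and 8.64 against 7.36 and 7.50. Chac1, which degrades glutathione, lay at 8.05 and 8.19 against 7.06 and 7.23 (-0.98 ± 0.13). Both arms were tight in these genes and, as in every called gene, did not overlap. Eif4ebp1, the brake on cap-dependent translation, was 2.13-fold lower, and Ddit3, the transcription factor CHOP, lay at 6.62 and 6.72 against 5.81 and 6.02 (-0.75 ± 0.12). Herpud1, of endoplasmic reticulum degradation, differed by -0.79 and Xpot, the tRNA exporter, by -0.75. Atf5 (-0.93) was lower too, with its call lost without no-titled 0 h array 2. Nupr1 (-0.35), Atf3 (-0.17), Sesn2 (-0.03), Stc2 (-0.07) and Ppp1r15a (0.05), which ATF4 or CHOP is known to induce, did not pass. Leaving out each 0 h array in turn left 8, 8, 9 and 9 members lower.

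Beside Slc7a11, the transporters that were lower included Slc1a5, a glutamine carrier, at 8.89 and 8.87 against 7.88 and 8.16 (-0.86 ± 0.13). Slc6a9, a glycine carrier, differed by -0.86 ± 0.14, and Slc1a4, a carrier of alanine and serine, by -0.80 ± 0.13. Slc3a2, the heavy chain shared by several exchangers, was lower at -0.60, a call lost without no-titled 0 h array 2. The members that were higher were both of the SLC36 family. Slc36a1, which exports amino acids from lysosomes, lay at 5.70 and 5.65 against 6.51 and 6.58 (0.87 ± 0.11, limma adjusted p = 0.00103), and Slc36a4 differed by 0.55 (call lost without each of no-titled 0 h arrays 1 and 2), so that 1 member was higher in those fits. The lower counts without each 0 h array were 5, 4, 6 and 6.

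The enzymes of the serine and folate branch stood apart with little spread. Psat1, of serine synthesis, lay at 10.62 and 10.71 against 9.67 and 9.82 (-0.92 ± 0.11), and Psph, the last step of that pathway, differed by -0.73 ± 0.12. Shmt2, which splits serine in mitochondria, was 2.06-fold lower, at 9.79 and 9.79 against 8.84 and 8.65. Mthfd2, of mitochondrial folate metabolism, lay at 9.32 and 9.32 against 8.24 and 8.18 (-1.11 ± 0.11). In these genes the replicate arrays lay close together, and the arms, as in every called gene, did not overlap. Aldh18a1, the first enzyme of proline synthesis, was 2.13-fold lower, and Asns, asparagine synthetase, lay at 11.99 and 12.03 against 11.26 and 11.38 (-0.69 ± 0.11). Phgdh, the first enzyme of serine synthesis, did not pass, at -0.36 (limma adjusted p = 0.0772), and neither did Cth (0.04) or Cbs (-0.14) of the transsulfuration route. Between 9 and 10 members were lower in every fit without 1 array.

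Among the synthetases, Lars, which charges leucine, lay at 9.44 and 9.47 against 8.57 and 8.48 (-0.93 ± 0.10, limma adjusted p = 7.11e-04). Gars, for glycine, lay at 10.07 and 9.98 against 9.20 and 9.09 (-0.88 ± 0.12), and Tars, for threonine, at 9.0 and 9.03 against 8.35 and 8.24 (-0.72 ± 0.11). The plus-titled arrays were the lower pair in each. Vars (-0.76), for valine, was lower as well, with its call lost without no-titled 0 h array 1, and so was Mars1 (-0.66), for methionine, with its call lost without no-titled 0 h array 2. Farsa (0.008), Qars (-0.06) and Wars (-0.15) did not pass. Without each 0 h array in turn, the counts were 4, 4, 9 and 7.

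Cholesterol synthesis was higher in the plus-titled arm along nearly the whole pathway. Of 17 enzymes measured, 14 were higher and 0 lower, against 6.2% higher over all genes, and no member lay below 0. The median was 0.84. The mean signal of the list was 8.16 and 8.38 in the no-titled arrays and 9.0 and 9.14 in the plus-titled arrays. The gap within the no-titled pair was therefore part of the spread, and the count without each 0 h array was 6, 12, 12 and 9, the lowest without no-titled array 1.

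From the start of the pathway, Hmgcs1, which makes HMG-CoA, lay at 8.98 and 9.28 against 9.83 and 10.12 (0.84; call lost without each of no-titled 0 h array 1 and plus-titled 0 h array 2). Idi1, isopentenyl diphosphate isomerase, was 2.24-fold higher, at 8.38 and 8.46 against 9.69 and 9.48. Lss, which closes the sterol rings, was 2.31-fold higher, at 7.88 and 8.18 against 9.12 and 9.35 (1.21 ± 0.14, limma adjusted p = 7.60e-04). In the later steps, Msmo1 lay at 10.20 and 10.47 against 11.18 and 11.27 (0.89 ± 0.12) and Nsdhl at 8.37 and 8.82 against 9.73 and 9.69 (1.11 ± 0.14). Hsd17b7 differed by 1.00 ± 0.10 and Dhcr7, the enzyme of the last step to cholesterol, by 1.10 ± 0.15. All of these kept both plus-titled arrays above both no-titled arrays, as every gene called higher did. Pmvk (0.54), Mvk (0.36) and Tm7sf2 (0.33) did not pass.

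Of 16 genes of sterol uptake, sensing and export, 7 were higher and 0 lower (median 0.27). Insig1, which holds the SREBP complex in the endoplasmic reticulum and is itself an SREBP target, lay at 9.28 and 9.63 against 10.46 and 11.08 (1.31 ± 0.25; call lost without each of no-titled 0 h array 1 and plus-titled 0 h array 2). Npc1 and Npc2 hand cholesterol out of lysosomes, and they differed by 0.89 ± 0.11 and 0.71, the call of Npc2 being lost without no-titled 0 h array 1. Mylip, an LXR target that degrades the LDL receptor, was 1.92-fold higher, at 7.55 and 7.61 against 8.48 and 8.56. Of LXR targets of cholesterol export, Abca1 (0.09) and Abcg1 (-0.05) did not pass. Leaving out each 0 h array gave counts of 2, 5, 7 and 4. Of 20 fatty acid genes 3 were higher and 0 lower, led by Acss2, a cytosolic acetyl-CoA synthetase, at 6.98 and 7.33 against 8.15 and 8.24 (1.04 ± 0.15). Fasn (0.17), Scd1 (0.32) and Srebf1 (0.06) did not pass. With each 0 h array left out, the counts were 2, 1, 4 and 2 for the fatty acid list, and with the replicate block 6 were higher.

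The sterol response element was searched as TCACNCCA and the NF-Y box as CCAAT, each on both strands. The NF-Y box was in 14 of the 17 windows of the cholesterol list, which cover 14 of its genes, against 34.5% of the windows of all genes tested, and the sterol element in 2 of 17 against 3.42%. In the windows of all genes higher the shares were 35.5% and 3.41%. The genes with both, Hmgcs1 and Msmo1, and 1 with the NF-Y box alone, Idi1, are shown with the matches in capitals; a match on the other strand reads ATTGG.
Hmgcs1: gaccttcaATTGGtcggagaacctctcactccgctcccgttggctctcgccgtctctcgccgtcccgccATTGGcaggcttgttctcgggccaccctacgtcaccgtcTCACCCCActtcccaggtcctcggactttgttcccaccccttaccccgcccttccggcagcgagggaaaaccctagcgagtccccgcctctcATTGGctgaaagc
Msmo1: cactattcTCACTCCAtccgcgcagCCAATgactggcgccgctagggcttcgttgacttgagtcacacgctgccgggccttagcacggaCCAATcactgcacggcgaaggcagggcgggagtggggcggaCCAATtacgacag
Idi1: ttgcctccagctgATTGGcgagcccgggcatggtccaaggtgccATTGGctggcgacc
In GRCm38.p6, from RefSeq, these are chr13:119690106-119690318 on the plus strand, chr8:64733621-64733763 on the minus strand and chr13:8885548-8885605 on the plus strand. Each of the first pair holds 3 NF-Y boxes and 1 sterol element that do not overlap. All 14 enzymes with a window held an NF-Y box, so it could not be compared within the list. Mvk, Pmvk and Tm7sf2, which did not pass, held it too. Elsewhere, the NF-Y box was in 16 of 18 windows of the endoplasmic reticulum chaperones, of which 2 were higher and 2 lower. It was in 10 of 35 windows of the ribosome biogenesis factors. The sterol element was in 2 of 17 windows of the serine, proline and one-carbon list and in 0 of 36 of the mitosis list.

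**Figure D2:**
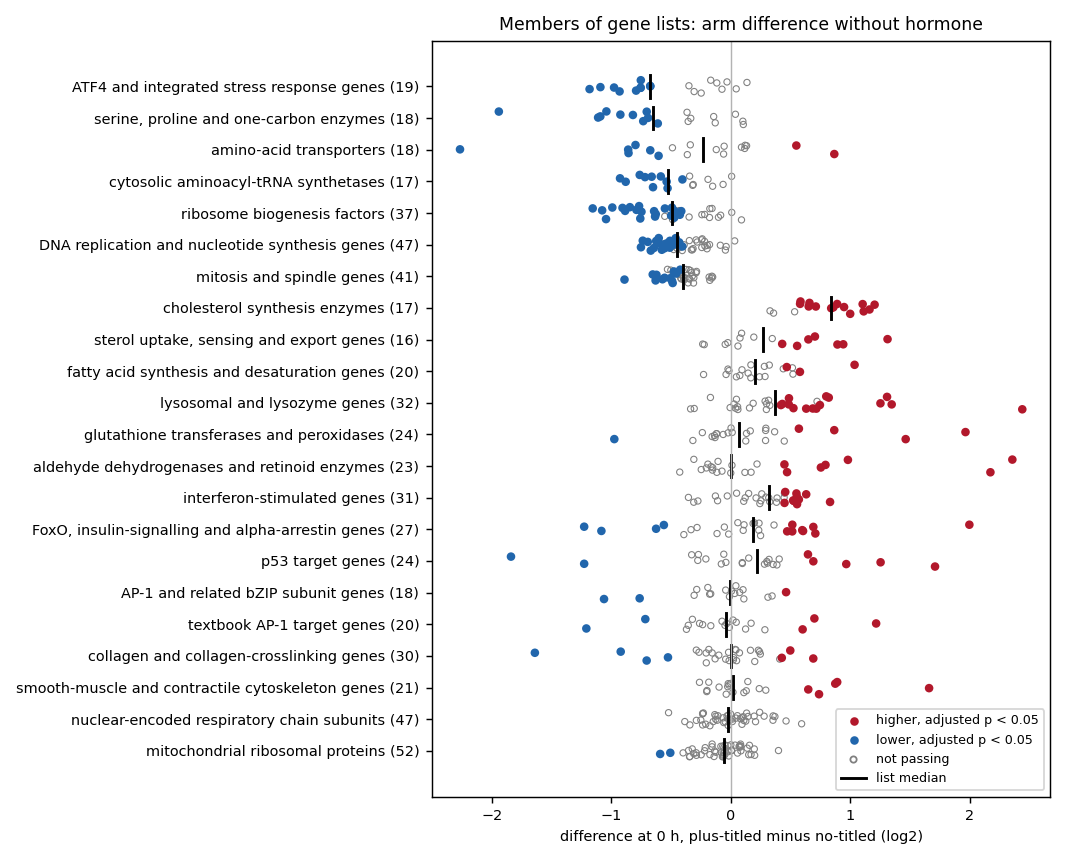
Difference at 0 h on the log2 scale, plus-titled minus no-titled (horizontal axis), of each measured member (point) of 22 gene lists, with the number measured in brackets; filled points passed at adjusted p under 0.05 (red higher, blue lower), and the bar is the list median. The first 7 lists have medians from -0.67 to -0.23. The value of -0.23 is that of the amino acid transporters, with 6 of 18 members above 0. The cholesterol list lies right of 0 with a median of 0.84, and the respiratory chain and mitochondrial ribosome lists centre near 0.

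Of 32 lysosomal genes measured, 15 were higher and 0 lower (median 0.37), and the list's mean signal was 7.48 and 7.57 in the no-titled arrays and 7.92 and 8.08 in the plus-titled arrays. After Lyz2, Neu1, a sialidase, lay at 6.08 and 6.36 against 7.52 and 7.61 and was 2.55-fold higher. Lipa, the acid lipase that frees cholesterol from LDL, lay at 7.57 and 7.74 against 8.87 and 9.06 (1.31 ± 0.14), and Ctso, a cysteine protease, differed by 1.25 ± 0.13. The plus-titled arrays were well above the no-titled arrays in these genes. Ppt1 (0.82) and Tpp1 (0.75), enzymes lost in neuronal lipofuscinosis, and Gaa, which breaks down glycogen (0.80), were also higher in every fit without 1 array. Ctsd, the protease cathepsin D, differed by 0.49, Mcoln1, a lysosomal calcium channel, by 0.53, and Grn, progranulin, by 0.63. The Ctsd call was lost without each of no-titled 0 h arrays 1 and 2, plus-titled 0 h array 2 and no-titled 4 h arrays 1 and 2, that of Mcoln1 without each of no-titled 0 h arrays 1 and 2 and plus-titled 0 h array 2, and that of Grn without each of no-titled 0 h arrays 1 and 2 and plus-titled 0 h array 2. Cathepsin genes Ctsb (0.32), Ctsl (0.03) and Ctss (-0.17), and Tfeb itself (0.04), did not pass. The counts without each 0 h array were 9, 9, 14 and 10.

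The lysosomal CLEAR motif was searched as TCANGTGA and the E-box as CACGTG, both strands; TCACGTGA holds both. CLEAR was in 5 of the 34 windows of the list and the E-box in 10 of 34, against 3.33% and 6.99% of the windows of all genes tested and 3.86% and 9.72% of those of all genes higher. Of the members that were higher, those with CLEAR are shown, with matches in capitals.
Ctsd: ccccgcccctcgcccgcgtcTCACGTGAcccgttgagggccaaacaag
Mcoln1: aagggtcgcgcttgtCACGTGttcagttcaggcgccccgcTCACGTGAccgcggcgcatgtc
Grn: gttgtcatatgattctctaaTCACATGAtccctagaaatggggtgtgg
These are chr7:142387899-142387946 on the minus strand, chr8:3500433-3500494 on the plus strand and chr11:102430276-102430323 on the plus strand in GRCm38.p6, from RefSeq. Of 5 genes with CLEAR, 3 were higher (median 0.49), and of the 24 with a window without it 11 were higher (median 0.37). The E-box went the other way. Of 10 genes with it 4 were higher (median 0.30), and of the 19 with a window without it 10 were higher (median 0.49).

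Myc was among the genes with the largest difference downward, at 8.85 and 8.79 in the no-titled arrays and 7.52 and 7.23 in the plus-titled arrays, or 2.72-fold lower (-1.45 ± 0.12, limma adjusted p = 1.40e-04). Mxd4, which competes with Myc for their shared partner Max, was 2.40-fold higher, at 7.11 and 7.29 against 8.35 and 8.57. The other 11 genes of the Max network, among them Max (0.30), Mycn (-0.13) and Mnt (-0.11), did not pass. Ribosome biogenesis, which Myc is known to drive, was lower in 22 of 37 factors and higher in 0, with a median of -0.49. The mean signal of these factors was 8.63 and 8.54 in the no-titled arrays and 8.18 and 7.93 in the plus-titled arrays.

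Dkc1, the pseudouridine synthase of H/ACA particles, lay at 9.06 and 8.84 against 7.99 and 7.60 and was 2.23-fold lower. Nhp2, of the same particles, lay at 8.59 and 8.48 against 7.61 and 7.37 (-1.04 ± 0.12), and Nop56, a core protein of C/D particles, at 10.33 and 10.22 against 9.25 and 9.32 (-0.99 ± 0.12). Gnl3, a nucleolar GTPase, was 2.11-fold lower. Within the plus-titled pair, array 2 was the lower one in most of these. Mybbp1a (-0.88) and Nolc1 (-0.84), both nucleolar proteins, were lower in every fit without 1 array. Ncl, nucleolin (-0.49), Npm1, nucleophosmin (-0.43), and Polr1a, the large subunit of RNA polymerase I (-0.18), did not pass. Without each 0 h array in turn, the counts were 6, 6, 21 and 7.

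Of 47 DNA replication genes measured, 21 were lower and 0 higher, 46 lay below 0 and the median was -0.45. Mcm7, a subunit of the replicative helicase, lay at 9.73 and 9.75 in the no-titled arrays and 9.10 and 8.99 in the plus-titled arrays (-0.69 ± 0.12, limma adjusted p = 0.00500). Rfc5, of the clamp loader, lay at 8.73 and 8.69 against 8.10 and 7.82 (-0.75 ± 0.13). Tk1, thymidine kinase, differed by -0.74 (call lost without no-titled 0 h array 1), and Mcm5 by -0.64 (call lost without each of no-titled 0 h arrays 1 and 2 and plus-titled 0 h array 2). Rrm1 (0.03), Orc1 (-0.04) and E2f1 (-0.24) did not pass. The counts moved with single arrays, and without each 0 h array were 2, 4, 20 and 7. The median stayed between -0.50 and -0.31 in those fits.

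All 41 mitosis and spindle genes lay below 0 (median -0.40), and 13 were called, 0 of them higher. Anln, which builds the contractile ring, lay at 10.17 and 10.08 against 9.46 and 9.01 (-0.89 ± 0.16; call lost without no-titled 0 h array 1). Cdc20, which activates the anaphase-promoting complex, lay at 8.55 and 8.69 against 8.06 and 8.03 (-0.57; call lost without no-titled 0 h array 2). Mki67, the proliferation antigen Ki-67, lay at 9.97 and 9.79 against 9.49 and 8.96 (-0.65), with its call lost without each of no-titled 0 h arrays 1 and 2, plus-titled 0 h array 2, no-titled 4 h arrays 1 and 2 and plus-titled 4 h arrays 1 and 2. Top2a (-0.35), Cdk1 (-0.39) and Aurka (-0.40) did not pass. The list's mean signal was 8.73 and 8.65 in the no-titled arrays and 8.43 and 8.13 in the plus-titled arrays, so part of the distance between the arms lay within the plus-titled pair. Leaving out each 0 h array gave counts of 1, 2, 21 and 2, and leaving out any 1 of the 4 h arrays, which add only to the estimate of spread, gave 7. The count was 6 with median centring and 4 with the 0 h arrays alone. Without plus-titled 0 h array 2, 2 members lay above 0 and 39 below.

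The E2F motif was searched as TTTNNCGC and the CHR element of late cell cycle genes as TTTGAA, both strands. E2F was in 10 of the 45 windows of the replication list (5.41% of the windows of all genes tested) and in 10.9% of the windows of all genes lower in the plus-titled arm. CHR was in 12 of 36 windows of the mitosis list (13.4% of the windows of all genes tested) and in 11.4% of those of all genes lower, and the NF-Y box in 28 of 36 windows of the mitosis list (38.2% of those of all genes lower). An example pair of each list that was lower is shown, with E2F and NF-Y matches in capitals for the Mcm genes and CHR and NF-Y matches for the others.
Mcm5: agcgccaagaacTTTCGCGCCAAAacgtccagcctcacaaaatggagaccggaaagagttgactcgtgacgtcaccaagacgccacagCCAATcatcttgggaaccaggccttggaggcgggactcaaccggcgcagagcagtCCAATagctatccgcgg
Mcm7: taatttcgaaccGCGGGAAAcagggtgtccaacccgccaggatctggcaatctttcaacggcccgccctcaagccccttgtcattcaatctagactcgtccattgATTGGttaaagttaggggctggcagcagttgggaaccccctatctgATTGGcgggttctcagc
Ccnb2: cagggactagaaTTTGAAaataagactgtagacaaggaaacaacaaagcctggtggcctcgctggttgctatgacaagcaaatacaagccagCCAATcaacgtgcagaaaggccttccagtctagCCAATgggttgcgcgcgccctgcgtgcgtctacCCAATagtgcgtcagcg
Cdc20: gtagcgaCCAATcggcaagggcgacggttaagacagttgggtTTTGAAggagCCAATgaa
These RefSeq stretches are chr8:75109344-75109503 on the plus strand, chr5:138171893-138172060 on the minus strand, chr9:70421559-70421733 on the minus strand and chr4:118437344-118437403 on the minus strand in GRCm38.p6. In Mcm5 the first run in capitals is 2 overlapping E2F matches, 1 on each strand. The Mcm7 stretch is from 1 of its 2 windows. Of 9 replication genes with E2F, 6 were lower (median -0.51), and of the 30 with a window without it 12 were lower (median -0.41). Of 11 mitosis genes with CHR, 4 were lower (median -0.40), and of the 23 with a window without it 6 were lower (median -0.40). Ccnb2, a mitotic cyclin, differed by -0.49 (call lost without each of no-titled 0 h arrays 1 and 2 and plus-titled 0 h array 2).

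**Figure D3:**
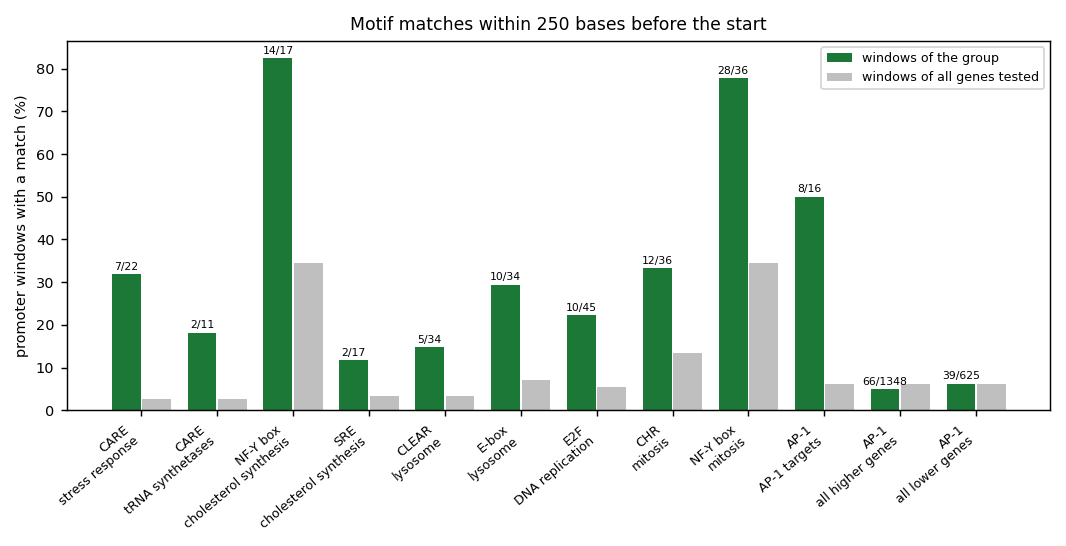
Share of promoter windows, in percent (vertical axis), that hold a match within 250 bases before the start, for 12 pairs of motif and gene group (green, with the count of windows above the bar) and for all genes tested (grey). The NF-Y box is in 14 of 17 windows of the cholesterol list and CARE in 7 of 22 of the stress response list, and the AP-1 share of all higher (4.9%) and all lower genes (6.24%) is close to that of all genes tested (6.04%).

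Of 14 D cyclins, CDK inhibitors and pocket proteins measured, 2 were higher and 2 lower (14.3% each, against 6.2% and 3.18% of all genes). Ccnd3, cyclin D3, lay at 7.29 and 7.30 against 7.95 and 7.89 (0.62 ± 0.10, limma adjusted p = 0.00449), and the other D cyclins Ccnd1 (-0.07) and Ccnd2 (0.10) did not pass. Rb1, the retinoblastoma gene, was higher at 0.48 (call lost without each of no-titled 0 h arrays 1 and 2 and plus-titled 0 h array 1). Cdkn1b, the inhibitor p27, did not pass at 0.26. The higher counts without each 0 h array were 1, 1, 1 and 2 and the lower counts 0, 0, 1 and 0.

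Genes of the FoxO and insulin pathway and of p53 had members both ways. In the FoxO list of 27, 8 were higher and 4 lower (median 0.19); without each 0 h array 1, 2, 5 and 2 were higher and 2, 3, 3 and 3 lower. Beside Txnip, Sesn3, a stress-induced brake on mTORC1, lay at 5.29 and 5.29 against 6.14 and 5.86 (0.71; call lost without each of no-titled 0 h arrays 1 and 2 and plus-titled 0 h array 1), and Insr, the insulin receptor, differed by 0.60 (call lost without each of no-titled 0 h array 1 and plus-titled 0 h array 2). Igfbp6, which binds IGF-2, was 2.12-fold lower, at 9.51 and 9.62 against 8.45 and 8.51, and Gadd45a, a growth arrest gene, 2.34-fold lower, at 9.47 and 9.62 against 8.24 and 8.39. Both lower genes kept their arms apart by about 1 log2 unit. In the p53 list of 24, 5 were higher and 2 lower. Trp53inp1, a proapoptotic autophagy protein, lay at 5.42 and 5.93 against 7.34 and 7.43 (1.71 ± 0.20), Fas, the death receptor, at 4.45 and 4.91 against 6.01 and 5.86 (1.26 ± 0.15), and Tnfrsf10b, the TRAIL receptor, at 7.50 and 7.37 against 8.51 and 8.29 (0.97 ± 0.13). Mdm2 (0.32), Ccng1 (0.36) and Bbc3 (0.10), other p53 targets, did not pass, and those that were lower were Plk2 and Gadd45a. Without no-titled 0 h array 2, 3 members were higher.

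Among detoxifying enzymes the calls fell mainly in the Mu-class transferases and the aldehyde dehydrogenases. Of 24 glutathione transferases and peroxidases, 4 were higher and 1 lower (median 0.07), and those higher were all Mu-class. Gstm5 lay at 7.27 and 7.27 in the no-titled arrays and 9.11 and 9.36 in the plus-titled arrays, 3.91-fold higher (limma adjusted p = 2.92e-05). Gstm7 lay at 5.12 and 5.58 against 6.85 and 6.78 (1.47 ± 0.15) and Gstm2 at 8.19 and 8.28 against 9.12 and 9.09 (0.87 ± 0.10), while Gstm1 (0.13) and Gstm3 (0.29) did not pass. The Mu-class genes are close in sequence, so signal may be shared between their probe sets. Mgst2, a microsomal transferase, was lower at -0.97, a call lost without each of no-titled 0 h array 2 and plus-titled 0 h arrays 1 and 2. Of the 23 genes in the list of aldehyde dehydrogenases and retinoid enzymes, 7 were higher and 0 lower with a median of 0.00055. That list leaves out Aldh1l2 and Aldh18a1, which were lower and are counted with the serine, proline and one-carbon enzymes. Beyond the Aldh1a pair, Aldh4a1, of proline breakdown, lay at 6.23 and 6.0 against 7.0 and 7.2 (0.98 ± 0.13) and Aldh3b1 differed by 0.76 ± 0.11. With each 0 h array left out, the counts were 4, 5, 6 and 6. Retinoid genes Rarb (-0.20), Crabp2 (0.00055) and Cyp26b1 (-0.19) did not pass. Of 21 NRF2 antioxidant genes, 0 were higher and 2 were lower, Srxn1 (-0.53) and Abcc1 (-0.44), and the lower counts without each 0 h array were 0, 0, 0 and 1. Slc7a11, the cystine importer that feeds glutathione synthesis, is not in this list and is counted with the amino acid transporters. The call of Srxn1, which reduces peroxiredoxins, was lost without each of no-titled 0 h arrays 1 and 2 and plus-titled 0 h array 1, and that of Abcc1, an export pump, without each of no-titled 0 h arrays 1 and 2 and plus-titled 0 h arrays 1 and 2. Nqo1 (0.26) and Gclm (-0.43) did not pass.

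Matrix genes went both ways. Of 30 collagen and crosslinking genes 3 were higher and 4 lower (10% and 13.3%, against 6.2% and 3.18% of all genes), with a median of 0.0047. Beside Lox, its relative Loxl1 lay at 8.32 and 8.37 against 7.41 and 7.45 (-0.92 ± 0.11), and Col1a2, a chain of type I collagen, at 12.17 and 12.10 against 11.36 and 11.51 (-0.70 ± 0.11). Col1a1, the other chain of that collagen, did not pass, at 6.87 and 6.98 against 6.89 and 7.0 (0.02). Col4a5, a basement membrane chain, was higher (0.69 ± 0.11), and in each fit without 1 of the 0 h arrays 1 member was higher. Of 29 matricellular and basement membrane genes 2 were higher and 3 lower (6.9% and 10.3%), the higher share being near that of all genes. Thbs1, thrombospondin 1, was 2.35-fold higher, at 10.51 and 10.49 against 11.81 and 11.65. Postn, periostin, lay at 5.29 and 5.15 against 4.30 and 4.53 (-0.80 ± 0.13) and Vcan, versican, at 5.99 and 5.96 against 5.29 and 5.27 (-0.70 ± 0.12), both lower. Of 24 protease-system genes 2 were higher and 3 lower (8.33% and 12.5%). Adamts1, which cleaves versican, lay at 9.57 and 9.52 against 10.59 and 10.33 (0.91 ± 0.12) and Timp2 differed by 0.64 ± 0.11. In the matricellular list, the higher counts without each 0 h array were 1, 2, 1 and 2.

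Of 21 smooth-muscle and contractile genes, 5 were higher and 0 lower, with a median of 0.02. Acta2, smooth-muscle actin, lay at 5.95 and 5.84 in the no-titled arrays and 8.15 and 6.96 in the plus-titled arrays. Its difference of 1.66 ± 0.39 (limma adjusted p = 0.0262) rested on plus-titled arrays that differed from each other by more than 1 log2 unit, and its call was lost without each of no-titled 0 h arrays 1 and 2 and plus-titled 0 h array 1 (adjusted p up to 0.175). Cnn2, calponin 2, was steadier, at 10.14 and 10.20 against 10.94 and 10.88 (0.74 ± 0.10). Tagln (0.24), Myl9 (-0.02), Cnn1 (0.13) and Myh11 (-0.03) did not pass. The counts without each 0 h array were 2, 2, 4 and 4. Of 21 YAP-TEAD targets, 5 were higher and 2 lower, led by Nt5e, the ecto-nucleotidase CD73, at 6.51 and 6.36 against 8.04 and 7.93 (1.55 ± 0.13); F3, tissue factor, differed by 0.83 ± 0.13 and Lats2, a Hippo kinase, by 0.74 ± 0.13. Ankrd1 was lower at -1.07, with its call lost without each of no-titled 0 h arrays 1 and 2 and plus-titled 0 h array 2. The YAP counts without each 0 h array were 3, 4, 3 and 4 higher and 0, 0, 2 and 0 lower. Of 31 TGF-beta and BMP genes 6 were higher and 1, Ltbp1, was lower; Tgfbr3, a co-receptor, differed by 0.79 ± 0.11. The higher counts there without each 0 h array were 3, 1, 4 and 5.

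Interferon-stimulated genes passed in 1 direction only. Of 31 measured, 10 were higher and 0 lower (median 0.32). Ddx58, the RNA sensor RIG-I, lay at 7.52 and 7.47 in the no-titled arrays and 8.52 and 8.13 in the plus-titled arrays (0.83 ± 0.15, limma adjusted p = 0.00630). Irf7 (0.63), Eif2ak2 (0.57) and Tap1 (0.56) were called too. The Irf7 call was lost without each of no-titled 0 h arrays 1 and 2, plus-titled 0 h arrays 1 and 2 and plus-titled 4 h arrays 1 and 2, that of Eif2ak2 without each of no-titled 0 h arrays 1 and 2, plus-titled 0 h array 1, no-titled 4 h arrays 1 and 2 and plus-titled 4 h arrays 1 and 2, and that of Tap1 without each of no-titled 0 h arrays 1 and 2 and plus-titled 0 h array 2. Mx1 (0.12), Oas1a (0.15), Rsad2 (-0.31) and Ifit1 (0.24) did not pass. Without each 0 h array in turn, the counts were 1, 3, 4 and 6, and without either plus-titled 4 h array 6 were called. Of 28 inflammatory mediators 3 were higher and 1 was lower (10.7% and 3.57%, against 6.2% and 3.18% of all genes). Each of these calls was lost without at least 1 of the 0 h arrays. Il6 (0.17), Il1b (0.13) and Cxcl1 (-0.27) did not pass.

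Of 23 genes that answer glucocorticoid, 2 were higher and 1 was lower before hormone, shares of 8.7% and 4.35% that are near those of all genes, 6.2% and 3.18% (median -0.0031); without each 0 h array 1, 0, 0 and 1 were higher and 2, 1, 1 and 2 lower. Sgk1, a serum- and glucocorticoid-induced kinase, was the lower one, at 7.79 and 7.64 in the no-titled arrays and 6.63 and 6.75 in the plus-titled arrays, 2.03-fold lower (limma adjusted p = 8.84e-04). Fkbp5 (-0.26), Tsc22d3 (0.04) and Per1 (-0.0031) did not pass. Nr3c1, the glucocorticoid receptor, lay at 8.70 and 8.75 against 8.77 and 8.79 (0.05; 95% interval -0.17 to 0.28; limma adjusted p = 0.817). Of 16 genes of the receptor, its chaperones and cofactors, Fkbp4 was called (-0.43; call lost without each of no-titled 0 h arrays 1 and 2 and plus-titled 0 h arrays 1 and 2). Among 17 clock genes 1 was higher and 4 lower, led by Nfil3, a repressor in the clock's output, at 7.69 and 7.36 against 6.53 and 5.99 (-1.27 ± 0.18); without each 0 h array 0, 0, 0 and 0 were higher and 2, 1, 2 and 2 lower. Among 23 immediate-early genes outside AP-1, 3 were lower and 0 higher, Plk2 being the largest (3, 1, 1 and 3 without each 0 h array); Egr1 (0.0034), Nr4a1 (0.03) and Ier2 (-0.21) did not pass. Of 19 genes of MAP kinase feedback, 3 were higher and 1 was lower, and without each 0 h array 2, 0, 0 and 0 were higher. Dusp7, an ERK phosphatase, was the lower one and differed by -0.74 (call lost without no-titled 0 h array 1), and Dusp6 (0.45), Spry2 (0.36) and Spry4 (0.0018), feedback genes of the same pathway, did not pass. Of 11 EGF receptor family genes and ligands, 2 were higher, Ereg (0.71; call lost without each of no-titled 0 h arrays 1 and 2 and plus-titled 0 h array 1) and Erbb3 (0.51; call lost without each of no-titled 0 h arrays 1 and 2 and plus-titled 0 h arrays 1 and 2).

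In smaller families, S100a4, a calcium-binding protein of motile cells, lay at 10.68 and 10.83 against 9.84 and 9.56 (-1.05 ± 0.14), and 3 of 15 S100 genes were lower and 1 higher, the higher one in no fit without a 0 h array. Efnb2, ephrin B2, was lower (-0.79 ± 0.12) and Efna3 higher (0.85 ± 0.12) among 17 ephrin and Eph genes, of which 1 was higher and 2 were lower; without each 0 h array 1, 1, 2 and 1 were higher and 1, 2, 2 and 1 lower. Among mesenchymal markers, Snai2, the transcription factor Slug, lay at 7.84 and 8.03 against 7.14 and 6.89 (-0.92 ± 0.13), and Pdgfra at 7.44 and 7.61 against 8.53 and 8.29 (0.88 ± 0.12), so members of 1 marker list went opposite ways. In each fit without a 0 h array 1 of these markers was higher. Of 24 glycolysis and hypoxia genes 6 were lower and 1 was higher; the higher one was Adm, adrenomedullin, at 7.18 and 7.50 against 8.51 and 8.56 (1.20 ± 0.14), and without each 0 h array 0, 0, 0 and 2 were lower. Of 20 chaperones and folding enzymes of the endoplasmic reticulum 2 were higher and 2 lower, with 1, 1, 2 and 2 higher and 0, 0, 1 and 0 lower without each 0 h array. Hspa5, the chaperone BiP and a marker of the unfolded protein response, did not pass (-0.02, limma adjusted p = 0.942).

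Genes of mitochondrial energy supply were read in the same way. Of 47 nuclear-encoded respiratory chain subunits limma called 0, with 6 at an unadjusted p under 0.05 and a median of -0.02. Without plus-titled 0 h array 1, 1 was higher and 1 lower. Of 52 mitochondrial ribosomal proteins 2 were lower and 0 higher. The share that was lower, 3.85%, is near the 3.18% of all genes, and both calls were lost without at least 1 of the 0 h arrays. The median was -0.06, and it lay between -0.11 and -0.02 in the fits without 1 array. Cycs, cytochrome c, had the lowest value of the respiratory list at -0.52, and Ndufa3 the highest at 0.59.

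The arrays at 4 h of dexamethasone, which share no array with those at 0 h, gave the same arms' difference a second time under hormone. The tests at both times, however, used a single estimate of spread per gene, made from the arrays of both times. Calls at 0 h and at 4 h are therefore not independent. At 4 h, 1054 genes (5.29%) were higher and 862 (4.32%) lower, together 9.61%. Without no-titled 4 h array 1 the 4 h calls came to 654, without no-titled array 2 to 910, without plus-titled array 1 to 1073 and without plus-titled array 2 to 743. Of the 1870 genes called at 0 h, 1808 (96.7%) had the same sign at 4 h. That share is of genes chosen by their 0 h call, and no same-sign share over all genes is given beside it. The genes called at both times numbered 1161, which is 62.1% of the 0 h calls and 60.6% of the 4 h calls. Of these 1161, 1158 had the same sign. Of the 147 genes at least 2-fold apart at 0 h, 138 were called with the same sign at 4 h. Across the 19938 genes, which are not independent replicates, the differences at 0 h and at 4 h correlated at r = 0.72 (Spearman 0.57).

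The lists with the most calls were read again at 4 h. The cholesterol list had 12 higher and 0 lower there (median 0.63), the lysosome list 14 and 0 (median 0.33), the serine and one-carbon list 0 and 10 (median -0.64) and the synthetases 0 and 12 (median -0.66). The stress response list had 0 higher and 8 lower (median -0.32), ribosome biogenesis 0 and 27 (median -0.72), replication 0 and 36 (median -0.60) and mitosis 0 and 11 (median -0.41). The amino acid transporters had 2 and 7, with a median that went from -0.23 at 0 h to -0.04 at 4 h, and the interferon list 5 and 0, with a median that went from 0.32 to 0.12. Lyz2 differed by 2.75 at 4 h, Slc7a11 by -2.27 and Myc by -1.23. Other genes called at 0 h had a difference near 0 at 4 h and were not called there. Sgk1 came to 10.07 and 9.90 in the no-titled and 9.98 and 10.17 in the plus-titled arrays at 4 h, a difference of 0.09. Adm went from 1.20 to -0.15, Fosl2 from -0.76 to 0.13, Snai2 from -0.92 to -0.05 and Adamts1 from 0.91 to 0.06. The test of the change in arm difference did not pass for these after adjustment over all genes (limma adjusted p = 0.129 for Sgk1, 0.129 for Adm and 0.271 for Fosl2), so a difference between the times is not shown for them. That test called 1 gene of 19938 (0.00502%), Suox, and 1018 genes reached an unadjusted p under 0.05. It called 0 genes without any single 0 h array, without no-titled 4 h array 2 or without plus-titled 4 h array 1. The genes called at both times with opposite signs were Dipk2a (-0.64 and 0.44), Arrdc3 (-0.56 and 0.54) and Macroh2a2, a macroH2A histone (0.62 and -0.87). Their tests of the change gave limma adjusted p = 0.129, 0.271 and 0.129. The 0 h call of Dipk2a was lost without no-titled 0 h array 1, that of Arrdc3 without each of no-titled 0 h arrays 1 and 2 and plus-titled 0 h arrays 1 and 2, and that of Macroh2a2 without each of no-titled 0 h arrays 1 and 2 and plus-titled 0 h arrays 1 and 2.

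**Figure D4:**
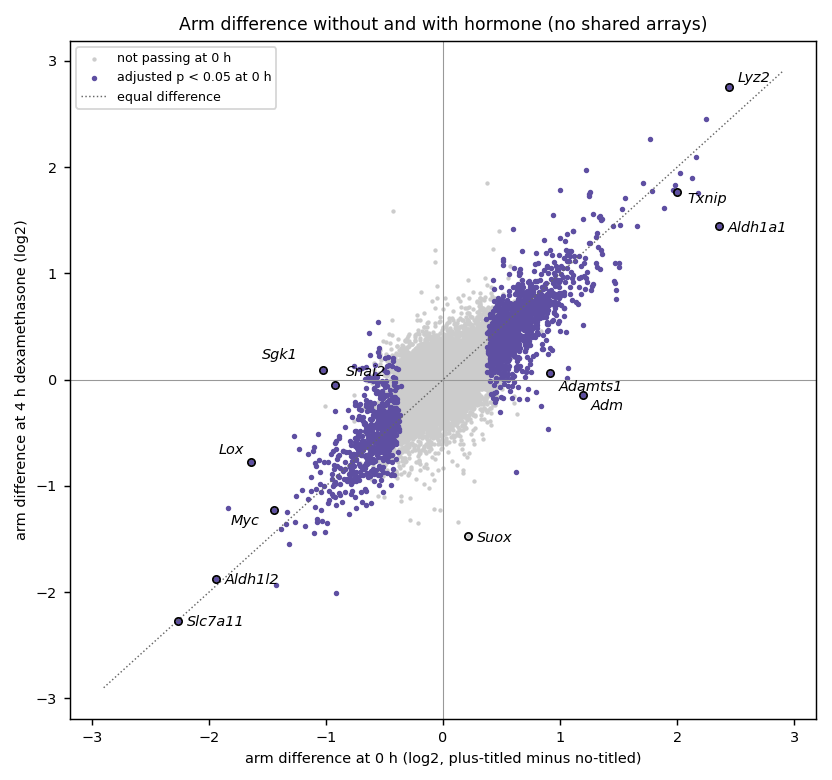
Arm difference on the log2 scale at 0 h (horizontal axis) and at 4 h of dexamethasone (vertical axis) for 19938 genes, coloured where called at 0 h, with a dotted line of equal difference and 12 genes ringed and named. Most coloured points lie below 0 on both axes or above 0 on both (1808 of 1870 have the same sign); Sgk1, Snai2, Adamts1 and Adm lie near 0 on the vertical axis, and Suox, which did not pass at 0 h, lies at -1.47.

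Calls were more frequent among brighter genes. With genes in 5 equal bins of mean signal, 11.9% were higher and 7.75% lower in the brightest bin, and 0.326% and 0.752% in the dimmest. The median difference of the called genes was 0.588 in size and the smallest was 0.363, against a median standard error of 0.126. No smaller difference was called with 2 arrays in each arm.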

How the data were processed

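Gene expression was measured on 8 Affymetrix arrays, 2 in each of 4 groups. The deposited values are log2 signals made by the authors with RMA in Affymetrix Expression Console, per the submitters' processing notes, which keeps relative levels of a gene between arrays but gives no detection calls. Of 28888 probe sets, 21789 had 1 symbol in the platform annotation, 1621 had several and 5478 had none there; symbols were updated through the gene number for 21698. The probe set with the highest mean stood for each of 19938 genes (999 had more than 1).

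limma 3.58.1 (R 4.3.3) was fitted to all 8 arrays with 1 mean per group (lmFit, eBayes; 4 residual and 6.64 prior degrees of freedom), which lets the 4 h arrays add to the estimate of spread. P-values were adjusted by Benjamini-Hochberg over all genes and called under 0.05; errors are standard errors unless given otherwise. The fit was tested on simulated data. The members and gene lists (48 lists, 1068 of 1133 entries measured) were chosen with earlier results of these data known. The genes named by rule were the 15 with the largest called difference in each direction whose arms do not overlap, up to 5 with the largest called difference of each list (up to 2 by smallest p where a list had no calls), and Fos, Fosl1, Jun, Myc and Nr3c1 always; members named as not passing, and those shown for a promoter match, were chosen after their values were seen.

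Replicate numbers were checked as pairs: deviations of same-numbered arrays correlated at -0.0191 to 0.133 between groups, so they were not treated as pairs. Alternatives were a trended robust variance, the 0 h arrays alone, a replicate block, no dim genes, median centring, cyclic loess, mean or single probe sets, a 2-fold minimum and leaving out each array. Promoter windows are RefSeq sequences of GRCm38.p6, and 19177 windows belonged to tested genes.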

Additional observations from a re-analysis of the deposited data

Results flagged for a closer look

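Suox, which encodes the sulfite oxidase of sulfur amino acid breakdown, stood out because its arm difference under hormone was not that without hormone, by the test of the difference itself. At 0 h it lay at 5.83 and 5.80 in the no-titled arrays and 6.0 and 6.06 in the plus-titled arrays, and at 4 h of dexamethasone at 8.95 and 9.10 against 7.51 and 7.60. The arm difference went from 0.22 to -1.47, a change of -1.69 (limma adjusted p = 0.00779 over 19938 genes). Both arms were higher at 4 h than at 0 h, the no-titled arm by more. The call was lost without any single 0 h array, without no-titled 4 h array 2 and without plus-titled 4 h array 1.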

How the results depend on the processing

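The difference at 0 h kept its direction and passed the threshold in 96 of the 173 called genes named by rule under the 16 other settings that keep the threshold on adjusted p alone, 77 missed it in at least 1 of them, and 0 changed sign. With a 2-fold minimum added, 147 genes were called at 0 h and 163 at 4 h. Leaving out 1 array gave 589 to 1642 calls at 0 h, 654 to 2128 at 4 h and 0 to 2 for the change between times. The settings for the last test were chosen after seeing the data; with 1 call as given, it had 11 with a trended robust variance and 2 with median centring. A block for replicate number, whose arrays share only a number, gave 2028 calls at 0 h. The share of 0 h calls that were higher was 66.1%, and came to 74.0% with median centring, 56.8% with cyclic loess and 58.1% without plus-titled 0 h array 1. Genes near 0 turned sign without being called: Jun, at -0.01, came to 0.018 with median centring and to between -0.11 and 0.087 without 1 array, and Nr3c1, at 0.05, to -0.011 with cyclic loess; the cause was not tested. With 2 arrays in a group, a lone array carried its arm in each such fit, and dim genes were seldom called, so a gene that did not pass is not shown to be alike in the arms.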

Other observations

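Gene families grouped by symbol after their values were seen add groups not covered above, and their counts are descriptions. Of 21 subunits and accessory proteins of the V-ATPase, the proton pump that acidifies lysosomes, 10 were higher and 0 lower in the plus-titled arm at 0 h (median 0.30). The highest were Atp6v0d1 (1.18), Atp6v1a (1.09) and Atp6v0a1 (1.06). Of 18 autophagy genes named Atg, 8 were higher and 0 lower (median 0.32). Of 35 Vps genes of endosomal sorting, all lay above 0 (median 0.19) and 7 were called, but with cyclic loess 27 lay above 0 and 8 below (median 0.11) with 3 called, and without no-titled 0 h array 2 or plus-titled 0 h array 1, 30 lay above and 5 below. Without no-titled array 1, no-titled array 2, plus-titled array 1 and plus-titled array 2 at 0 h, in that order, the V-ATPase count was 4, 6, 7 and 8, the Atg count 1, 4, 4 and 6 and the Vps count 1, 0, 0 and 4.

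Of 20 small nucleolar RNAs of the H/ACA class 13 were lower and 0 higher (median -0.65), and of 31 of the C/D class all lay below 0 and 6 were called (median -0.41); without no-titled 0 h array 1, 5 of the C/D class lay above 0. In the same order the H/ACA count was 3, 7, 10 and 4 and the C/D count 1, 8, 10 and 4. Of 38 genes of the large ribosomal subunit all lay below 0 and 3 were called (median -0.27), and of 26 of the small subunit all lay below 0 and 2 were called (median -0.22), with counts of 0, 1, 6 and 0 and of 0, 0, 1 and 0 in the same order. With cyclic loess, 4 of the large subunit genes and 2 of the small subunit genes lay above 0. Ribosomal protein and snoRNA genes lie inside or resemble other genes and pseudogenes, so signal may be shared between probe sets.

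A fit over all 28888 probe sets called 1890 of them. Of the 7099 without a single symbol, that fit called 312, of which 167 were higher and 145 lower in the plus-titled arm.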
